A study of Mus musculus with 4 samples.

Results

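The CD28 family of costimulatory and coinhibitory receptors and the other inhibitory checkpoints of T and natural killer (NK) cells were followed through liver mononuclear cells in a mouse model of hepatitis. The set held 9 genes, chosen by symbol, of the 31053 genes in the count matrices: the costimulatory receptors *Cd28* and *Icos*, the inhibitory receptors *Ctla4*, *Pdcd1* (PD-1), *Lag3*, *Havcr2* (TIM-3), *Tigit* and *Cd160*, and *Cd274* (PD-L1), the ligand of PD-1. Each was found under 1 identifier in all 4 matrices. C57BL/6 mice of 8 to 10 weeks of age were left untreated (Naïve) or were given Concanavalin A (ConA), a plant lectin that activates T cells and inflames the liver, followed by vehicle (ConA+Veh) or by TCDD, a dioxin (ConA+TCDD). The remaining library is labelled with ConA and FICZ (ConA+FICZ), and its schedule is not given in the sources used here. TCDD and FICZ are ligands of the aryl hydrocarbon receptor (AhR). Cells were taken 24 hours after ConA in the study's protocol, enriched by centrifugation in Percoll and measured by droplet 5′ single-cell RNA sequencing. There was 1 library per group, and the number of mice behind a library is not given in the sources used here.

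A T cell needs a signal through CD28, bound by CD80 or CD86 on the antigen-presenting cell, beside that of its antigen receptor. CTLA-4 competes for the same ligands and is held at high levels by regulatory T cells, while ICOS is costimulatory and has a ligand of its own. PD-1, LAG-3, TIM-3 and TIGIT are induced or kept on activated or cytotoxic lymphocytes and dampen them. CD160, a receptor of cytotoxic lymphocytes, is counted here with the inhibitory receptors in every gate, and its effect on NK cells was not measured. PD-L1 on hepatic and myeloid cells is known to restrain T cells in the liver.

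*Cd28*, *Ctla4* and *Icos* are neighbours on chromosome 1 of GRCm38, on the plus strand, and together span 283.5 kb from 60716800 to 61000320. *Pdcd1* lies farther along the same chromosome (94038305 to 94052553, minus strand). *Lag3* (chromosome 6, 124904361 to 124911705, minus), *Havcr2* (chromosome 11, 46454935 to 46481255, plus), *Tigit* (chromosome 16, 43648867 to 43664146, minus), *Cd160* (chromosome 3, 96798763 to 96829351, minus) and *Cd274* (chromosome 19, 29367455 to 29388095, plus) lie apart from them. *Cd160* overlaps *Pdzk1* on the opposite strand, which held no more than 3 UMIs in any cell gate of any library. *Ctla4* overlaps *Rpl18-ps1* and *Icos* overlaps *Gm37039*, both on the same strand, and *Cd274* overlaps *AC119228.1* on the opposite strand. Whether these bear on the counts was not tested. Promoter windows from RefSeq (GRCm38.p6) were at hand for 6 of the 9 genes, with 2 for *Cd160*, and not for *Cd28*, *Icos* and *Lag3*. The RefSeq start of *Ctla4* lies inside the longer gene model given above. The 250 bases before the annotated start are shown for *Ctla4* (chr1:60908775-60909024, plus strand) and *Tigit* (chr16:43664185-43664434, minus strand), the genes higher after ConA in CD8, CD4 and NK cells alike, and for *Cd274* (chr19:29367188-29367437, plus strand), the 1 gene of the 6 with the AhR core motif. Capitals mark GGAAA, the core bound by NFAT factors, or its reverse complement in *Ctla4* and *Tigit*, and GCGTG, the AhR core, in *Cd274*.
Ctla4: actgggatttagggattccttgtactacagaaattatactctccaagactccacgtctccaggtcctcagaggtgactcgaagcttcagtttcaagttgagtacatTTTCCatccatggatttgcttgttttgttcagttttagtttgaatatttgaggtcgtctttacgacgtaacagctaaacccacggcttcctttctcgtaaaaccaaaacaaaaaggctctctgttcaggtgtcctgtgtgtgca
Tigit: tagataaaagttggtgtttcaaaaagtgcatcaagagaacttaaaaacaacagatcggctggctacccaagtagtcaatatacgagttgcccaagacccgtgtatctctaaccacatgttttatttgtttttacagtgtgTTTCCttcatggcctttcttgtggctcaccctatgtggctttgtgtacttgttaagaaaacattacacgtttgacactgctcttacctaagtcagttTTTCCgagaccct
Cd274: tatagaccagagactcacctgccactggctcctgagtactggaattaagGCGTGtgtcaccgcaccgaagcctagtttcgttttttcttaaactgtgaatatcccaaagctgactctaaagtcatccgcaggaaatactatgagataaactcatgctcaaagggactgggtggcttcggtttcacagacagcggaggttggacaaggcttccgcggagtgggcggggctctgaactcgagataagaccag
Both strands were searched. GGAAA was present in 5 of the 7 windows (1 of the 2 of *Cd160*), against 55.6% of all 32851 RefSeq windows of the same length, and GCGTG in 1 of 7, against 28.2%. The AP-1 motif TGANTCA was found in 1 window, that of *Havcr2*, against 6.75% of all. A match of letters is a description and not a bound site.

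Cells were gated on their own transcripts, since no cell annotation was used: CD8 (*Cd3* and *Cd8* UMIs, no *Cd4* or *Foxp3*), CD4 (*Cd3* and *Cd4*, no *Cd8* or *Foxp3*), regulatory T (*Cd3* and *Foxp3*, no *Cd8*) and NK (*Ncr1* or *Klrb1c*, no *Cd3*, *Cd4*, *Cd8b1* or *Foxp3*). A UMI is a count of 1 captured RNA molecule. The CD8 gate held 174 cells in Naïve, 421 in ConA+Veh, 286 in ConA+TCDD and 260 in ConA+FICZ. In the same order of libraries, kept throughout, the CD4 gate held 81, 123, 87 and 75, the NK gate 128, 198, 162 and 159, and the regulatory T gate 3, 8, 15 and 19. The libraries held 1880 to 2779 cells and 5952445 to 19252211 UMIs, pairs of libraries shared 4 to 15 barcodes, and CD8-gated cells were shallower in Naïve (median 3250 UMIs) than after ConA (8564.5 to 11807). The gates carried their defining markers: *Trac* in the 3 T gates, *Il2ra*, *Ikzf2* and *Tnfrsf18* in the regulatory T gate, and *Eomes*, *Klre1* and *Prf1* in the NK gate, where *Trac* was at 9.92 to 34.5 counts per 1000000 UMIs (CPM). Some material of other cells moved with ConA: *S100a8*, a neutrophil gene, was at 11.5 CPM in the Naïve NK gate and at 564 to 1253 in the ConA libraries. Leaving out cells with 10 or more *S100a8* and *S100a9* UMIs left every count of genes given below as it was. Cells with fewer such UMIs were kept, so whether carried-over RNA bears on the levels was not tested.

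Levels are summed UMIs of a gene per 1000000 UMIs of the gated cells (CPM), with an exact 95% Poisson interval. With 1 library per group no test between groups was possible, and all intervals cover counting error only, not the spread between mice. A gene was compared where the 2 libraries together held at least 10 of its UMIs in the gate, and was counted when its CPM differed at least 2-fold. The same count over all genes is given as a background beside each count made with these settings. It was not computed for other choices of cells or settings. In whole-gate sums, fewer expressing cells and less RNA per cell cannot be told apart. The share of cells with a UMI was also read at an equal depth, with 1000 UMIs drawn at random from each cell. For sparse genes this share also follows the level, so it does not tell them apart either. B cells (2 or more UMIs of B cell marker genes, among them *Cd79a* and *Ms4a1*) served as the gate that should lack T cell receptors.

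**Figure D1:**
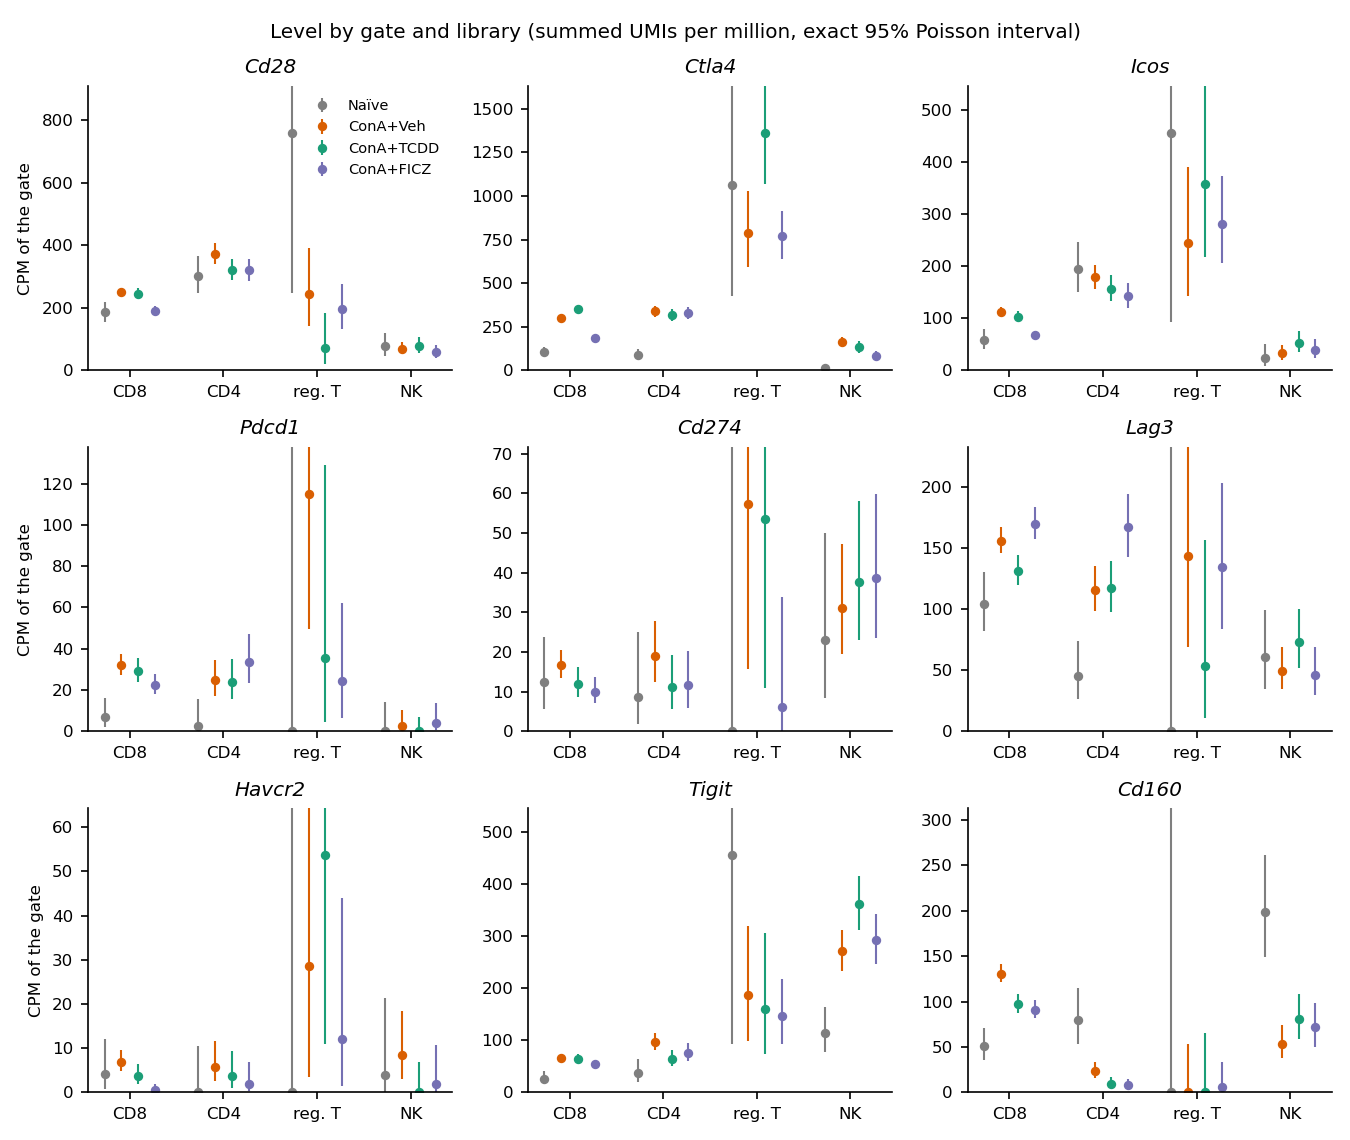
Level of each gene (y axis, CPM) by gate (x axis) and library (colour). Points are CPM and bars exact 95% Poisson intervals. Bars of the regulatory T gate, with 3 to 19 cells, may run past the axis. *Ctla4* was highest in the regulatory T gate of every library, *Tigit* was higher in the NK gate than in the CD8 and CD4 gates, and *Cd160* in the NK gate was at 199 CPM in Naïve and 53.8 in ConA+Veh.

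Costimulatory *Cd28* was the receptor of resting cells as well as activated ones. It was at 186 CPM (95% interval 156 to 220) in Naïve CD8 cells, 251 (238 to 265) in ConA+Veh, 246 (230 to 263) in ConA+TCDD and 191 (177 to 205) in ConA+FICZ. CD4 cells held more of it in every library, at 303, 372, 322 and 320 CPM, and the log2 ratio of CD8 over CD4 lay between -0.75 and -0.39 with no interval reaching 0. In Naïve, 58 of the 106 CD4 UMIs lay in 25 cells with a *Klrb1c*, *Zbtb16* or *Cxcr6* UMI (584 CPM), and the other 56 cells were at 191 CPM (141 to 254), beside 186 in CD8 cells. NK-gated cells were at 58.0 to 78.9 CPM, and B-gated cells at 1.14 to 4.72. In thinned cells 17.0%, 26.8%, 26.3% and 16.7% of the CD8 gate held a *Cd28* UMI (unthinned 39.1%, 77.7%, 77.3% and 66.5%), against 0.0965% to 0.637% of B cells. The ConA+FICZ CD8 value was thus close to the Naïve one, and below ConA+Veh and ConA+TCDD on both scales.

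*Icos*, which is induced on activated and helper-type T cells, differed in its pattern between the gates. Naïve CD8 cells held 58.3 CPM (42.0 to 78.8), compared with 113 (104 to 122) in ConA+Veh, 102 (92.1 to 114) in ConA+TCDD and 67.0 (59.2 to 75.7) in ConA+FICZ. The log2 ratio of ConA+Veh over Naïve was 0.95 (0.50 to 1.44), just short of 2-fold. In CD4 cells its level did not go up, with 194 CPM in Naïve and 178, 157 and 142 in the ConA libraries, and ConA+Veh over Naïve gave -0.12 (-0.52 to 0.29) on the log2 scale. Regulatory T-gated cells held 244 to 455 CPM, on 3 to 46 UMIs, above CD8 cells in every library.

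The Naïve CD4 value of *Icos* rested on a minority of cells. Of the 81 cells in that gate, 25 held a UMI of *Klrb1c*, *Zbtb16* or *Cxcr6*, genes of natural killer T and tissue-resident T cells. Those 25 cells were at 504 CPM (374 to 664) for *Icos*, and the other 56 at 71.7 (42.5 to 113). In ConA+Veh the cells with and without such a UMI were at 321 and 145 CPM. Without them the log2 ratio of ConA+Veh over Naïve in the CD4 gate was 1.01 (0.31 to 1.80) for *Icos* and 1.0 (0.57 to 1.46) for *Cd28*, compared with -0.12 and 0.30 in all CD4-gated cells. Among CD4 cells without a *Ccr7* or *Lef1* UMI at 1000 UMIs the same ratios were -0.56 (-1.02 to -0.08) and -0.64 (-1.03 to -0.23), so the direction for these 2 genes depended on which CD4 cells were compared.

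*Ctla4*, the inhibitory counterpart of *Cd28*, was higher after ConA in all of the CD8, CD4 and NK gates. CD8 cells were at 105 CPM (83.1 to 132) in Naïve, 303 (288 to 319) in ConA+Veh, 353 (333 to 373) in ConA+TCDD and 188 (174 to 202) in ConA+FICZ. CD4 cells were at 85.7, 338, 316 and 328 CPM. NK cells were at 11.5 CPM in Naïve, on 3 UMIs, and at 162, 132 and 81.2 in the ConA libraries, on 114, 70 and 42. Naïve was the low library in each of these gates, and its interval did not overlap that of any ConA library.

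On the log2 scale ConA+Veh over Naïve was 1.52 (1.19 to 1.88) for *Ctla4* in CD8, 1.98 (1.45 to 2.56) in CD4 and 3.81 (2.23 to 6.11) in NK cells. In thinned cells the share with a *Ctla4* UMI was 4.09% in Naïve CD8 cells (1.66 to 8.25, exact Clopper-Pearson) and 30% (25.6 to 34.7) in ConA+Veh, compared with 0.772% and 2.54% of B cells. None of 101 thinned Naïve NK cells held one (0 to 3.59%), against 9.39% (5.57 to 14.6) in ConA+Veh, and before thinning 2.34% and 22.7% did. Set at 3 positive cells, the 0 would be a share of 2.97%, which lies inside its exact interval. The median CD8 depth was 3250 UMIs in Naïve and 9274 in ConA+Veh before thinning, that of B cells 2133.5 and 4198.

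Regulatory T-gated cells had the highest *Ctla4* level of the 4 gates in all 4 libraries, at 1061, 789, 1358 and 768 CPM. Although these rest on only 7, 55, 76 and 126 UMIs, the log2 ratio of CD8 over regulatory T cells lay between -3.33 and -1.38 and no interval reached 0. The ConA+TCDD value was above that of ConA+Veh (log2 ratio 0.78, 0.26 to 1.31, 15 against 8 cells), and ConA+FICZ was level with ConA+Veh (-0.04, -0.51 to 0.45). The ConA+TCDD ratio was -0.22 with stricter gates and -0.096 with gates on thinned cells, so its direction rested on the choice of gate.

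*Pdcd1* was scarce. In CD8 cells 5 UMIs in Naïve gave 6.94 CPM (2.25 to 16.2), and 168, 102 and 88 UMIs gave 32.2 (27.5 to 37.4), 29.1 (23.7 to 35.3) and 22.5 (18.1 to 27.7) in ConA+Veh, ConA+TCDD and ConA+FICZ. CD4 cells held 1 UMI in Naïve and 34, 26 and 35 after ConA, at 24.0 to 33.8 CPM. The log2 ratio of ConA+Veh over Naïve was 2.21 (0.96 to 3.85) in CD8 and 3.12 (0.55 to 8.47) in CD4 cells. At 1000 UMIs the share of positive CD8 cells was lowest in ConA+FICZ (0.389%) and highest in ConA+TCDD (3.96%). The ConA+FICZ share was thus below that of Naïve, unlike the CPM, and no order of these libraries is read. NK cells held 0 to 2 UMIs per library.

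*Lag3*, which binds major histocompatibility complex class II, was at 104 CPM (81.9 to 130) in Naïve CD8 cells and at 156 (146 to 167), 132 (120 to 144) and 170 (157 to 183) in ConA+Veh, ConA+TCDD and ConA+FICZ. CD4 cells had less of it in Naïve, 45.7 CPM (26.1 to 74.2), and 116, 117 and 167 CPM after ConA. NK cells were at 46.4 to 73.3 CPM with overlapping intervals. ConA+Veh over Naïve was 0.58 (0.24 to 0.95) in CD8 and 1.34 (0.59 to 2.18) in CD4 cells on the log2 scale. The B gate was no empty background here, with 7.21 CPM in Naïve and 25.7 to 38.8 after ConA.

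*Tigit*, which competes with the activating receptor CD226 for ligands of the nectin family, was higher in NK cells than in CD8 and CD4 cells of every library. NK-gated cells were at 115 CPM (77.5 to 164) in Naïve, 271 (234 to 312) in ConA+Veh, 361 (312 to 416) in ConA+TCDD and 292 (247 to 343) in ConA+FICZ. CD8 cells were at 26.4, 66.8, 65 and 54.2 CPM and CD4 cells at 37.1, 96.5, 64.6 and 75.3. The log2 ratio of CD8 over NK cells lay between -2.47 and -2.02, and that of CD4 over NK cells between -2.48 and -1.49, with no interval reaching 0.

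ConA+Veh was above Naïve for *Tigit* by a log2 ratio of 1.34 (0.68 to 2.09) in CD8, 1.38 (0.55 to 2.33) in CD4 and 1.24 (0.68 to 1.84) in NK cells. It was under 2-fold in NK cells with stricter gates (0.85) or gates on thinned cells (0.86), and in CD4 cells without those holding a *Klrb1c*, *Zbtb16* or *Cxcr6* UMI (0.99). In thinned NK cells 6.93% (2.83 to 13.8) held a *Tigit* UMI in Naïve, and 26.0% (19.7 to 33.0), 33.6% (26.0 to 41.7) and 25.2% (18.1 to 33.4) did in ConA+Veh, ConA+TCDD and ConA+FICZ (unthinned 10.2%, 50.5%, 63.0% and 46.5%). B cells were at 0% to 0.318%.

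*Cd160*, a receptor of cytotoxic cells that binds HVEM, differed in direction between gates. CD8 cells were at 51.3 CPM (36.2 to 70.8) in Naïve and at 131 (121 to 141), 97.8 (87.8 to 109) and 91.3 (82.1 to 101) in ConA+Veh, ConA+TCDD and ConA+FICZ. NK cells were at 199 CPM (149 to 261) in Naïve and at 53.8, 80.8 and 71.6 after ConA. CD4 cells were at 80.0 CPM (53.1 to 116) in Naïve and at 23.4, 9.22 and 7.72 after ConA. ConA+Veh over Naïve was 1.35 (0.87 to 1.87) in CD8, -1.89 (-2.53 to -1.26) in NK and -1.77 (-2.55 to -0.99) in CD4 cells, and the intervals of the CD8 ratio and of the other 2 did not overlap.

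In the Naïve CD4 gate, 27 of the 28 *Cd160* UMIs were in the 25 cells with a *Klrb1c*, *Zbtb16* or *Cxcr6* UMI. These cells were 30.9% of the gate in Naïve and 18.7% to 19.5% in the ConA libraries. Within the cells with such a UMI *Cd160* was lower after ConA, at 272 CPM (179 to 396) in Naïve and 42.0 (21.0 to 75.1) in ConA+Veh. It was at 12.3 CPM in ConA+TCDD and 29.8 in ConA+FICZ, on 2 and 4 UMIs. In the other CD4 cells *Cd160* was at 3.98 CPM in Naïve and at 19.0 in ConA+Veh, so its lower level after ConA did not hold in them (log2 ratio 2.25, -0.38 to 7.62, on 1 and 21 UMIs). The NK gate of Naïve also held more *Cxcr6* (76.6 against 13.5 to 33.8 CPM) and *Trdc* (88.1 against 30.1 to 34.8 CPM) than those of the ConA libraries. Whether these bear on *Cd160* in the NK gate was not tested.

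*Havcr2* was close to the limit of what these libraries can show. In CD8 cells 3 UMIs were found in Naïve (4.16 CPM), 36 in ConA+Veh (6.90 CPM), 13 in ConA+TCDD (3.71 CPM) and 2 in ConA+FICZ (0.512 CPM). The highest levels outside the regulatory T gate were those of mononuclear phagocytes (2 or more UMIs of *Csf1r*, *Adgre1* and *C1qa*), at 25.9, 16.2, 13.2 and 20.3 CPM. T and NK cells together, counting also T cells (*Cd3* UMIs) outside the 3 T gates, held 16.1% of all *Havcr2* UMIs in Naïve and 20.0% to 61.4% after ConA. Those other T cells numbered 289, 411, 378 and 272.

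T and NK cells held the smaller share of *Cd274* transcripts. They held 17.7% of its UMIs in Naïve and 26.4% to 42.4% after ConA, while for *Cd28*, *Icos* and *Cd160* they held 91.9% to 97.2%. CD8 cells were at 9.98 to 16.7 CPM and NK cells at 23.0 to 38.7, with overlapping intervals among the libraries in each gate. Mononuclear phagocytes were at 33.7 CPM (18.0 to 57.7) in Naïve and 82.9 (69.9 to 97.7), 55.0 (35.6 to 81.2) and 60.9 (49.7 to 73.9) in ConA+Veh, ConA+TCDD and ConA+FICZ. B cells went the other way, from 46.7 CPM (38.8 to 55.7) in Naïve to 15.5 (11.9 to 19.8), 20.4 and 13.4. ConA+Veh over Naïve was thus 1.30 (0.48 to 2.24) in phagocytes and -1.59 (-2.05 to -1.14) in B cells on the log2 scale.

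For the question of what ConA hepatitis does to these genes, ConA+Veh was set against Naïve. The genes were chosen with earlier results of these data known, so the counts describe them and are no test of the set. In CD8 cells 4 of the 9 genes (*Ctla4*, *Pdcd1*, *Tigit* and *Cd160*) were at least 2-fold higher, against 13.9% of all genes compared, and none was at least 2-fold lower, against 13.7%. In CD4 cells 5 of 8 (*Ctla4*, *Pdcd1*, *Cd274*, *Lag3* and *Tigit*) were higher against 11.6% of all genes, and 1 (*Cd160*) lower against 14.6%. The interval of *Cd274* there reached 0 (log2 ratio 1.15, -0.56 to 3.52). In NK cells 2 of 7 (*Ctla4* and *Tigit*) were higher against 10.0%, and 1 (*Cd160*) lower against 16.7%. The median log2 ratio of the genes compared was 0.95 in CD8, 1.24 in CD4 and 0.44 in NK cells, beside -0.0025, -0.022 and -0.17 over all genes.

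The CD8 contrast depended on which cells were in the gate. *Ccr7* or *Lef1*, genes of naive and central memory T cells, were read in 52.0% of thinned Naïve CD8 cells and in 47.6% of ConA+Veh ones. Whether these genes mark the same kinds of cell in both libraries was not tested. In Naïve, cells with such a UMI held less *Lag3* (36.9 against 166 CPM, log2 ratio -2.17, -3.16 to -1.29) and less *Cd160* (25.6 against 76.4, -1.58, -2.85 to -0.45) than cells without. In ConA+Veh cells with and without such a UMI differed by 0.10 (-0.11 to 0.30) for *Lag3* and by -0.06 (-0.28 to 0.16) for *Cd160*. Other genes did differ there, and *Ctla4* was higher in cells with such a UMI (388 against 236 CPM, 0.71, 0.57 to 0.86). So were *Cd28* (0.71, 0.55 to 0.87), *Icos* (0.70, 0.46 to 0.94) and *Cd274* (0.74, 0.095 to 1.39), while *Havcr2* was lower (-1.44, -2.78 to -0.27). For *Ctla4* in Naïve the ratio was -0.56 (-1.27 to 0.14). Among cells without such a UMI at 1000 UMIs (82 in Naïve, 215 in ConA+Veh), the log2 ratio of ConA+Veh over Naïve was 0.91 (0.48 to 1.38) for *Ctla4*, 0.87 (0.07 to 1.81) for *Tigit*, 0.81 (0.25 to 1.41) for *Cd160* and -0.14 (-0.53 to 0.27) for *Lag3*. Only *Pdcd1* (1.29, 0.02 to 2.94) and *Havcr2* (1.81, -0.79 to 7.16) of the 9 genes were at least 2-fold higher in those cells. The share of all genes past 2-fold was not computed for those cells. When cells were left out by *Ccr7* or *Lef1* at the deposited depth (33 in Naïve, 63 in ConA+Veh left), *Ctla4* was at -0.36 (-1.06 to 0.38), *Pdcd1* at 0.40, *Tigit* at 0.25 and *Cd160* at 0.26. That choice was made at unequal depth, with a median of 3250 UMIs per CD8 cell in Naïve and 9274 in ConA+Veh. Whether depth bears on these ratios was not tested.

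Cycling moved with ConA as well. UMIs of *Mki67*, *Top2a*, *Birc5*, *Cdk1* or *Ccnb2* were read in 2.34% of thinned CD8 cells of Naïve and in 57.6%, 42.4% and 36.2% of those of ConA+Veh, ConA+TCDD and ConA+FICZ. In ConA+Veh CD8 cells with such a UMI held more *Ctla4* (333 against 248 CPM, log2 ratio 0.42, 0.27 to 0.58) and more *Lag3* (175 against 123, 0.51, 0.29 to 0.74) than the rest. In ConA+TCDD the same log2 ratio was 0.64 (0.47 to 0.81) for *Ctla4* (421 against 270 CPM). It was 0.997 (0.703 to 1.297) for *Lag3* (170 against 85.1), and both intervals overlapped those of ConA+Veh. The ratio was smaller in ConA+TCDD than in ConA+Veh for *Cd28* (0.047 against 0.39), *Cd274* (-0.41 against 0.26) and *Tigit* (-0.21 against 0.21). In ConA+FICZ no gap was seen for *Ctla4* (191 against 185) or *Lag3* (161 against 178). For *Cd160* the ratio there was 0.40 (0.091 to 0.71). CD8 cells without a UMI of these cycling genes after thinning were at 248 CPM of *Ctla4* in ConA+Veh and 101 in Naïve. For *Lag3* they were at 123 and 92.4 CPM. Such cells may still be cycling, since thinning can miss these UMIs. Whether cycling bears on the difference between the libraries was not tested.

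**Figure D2:**
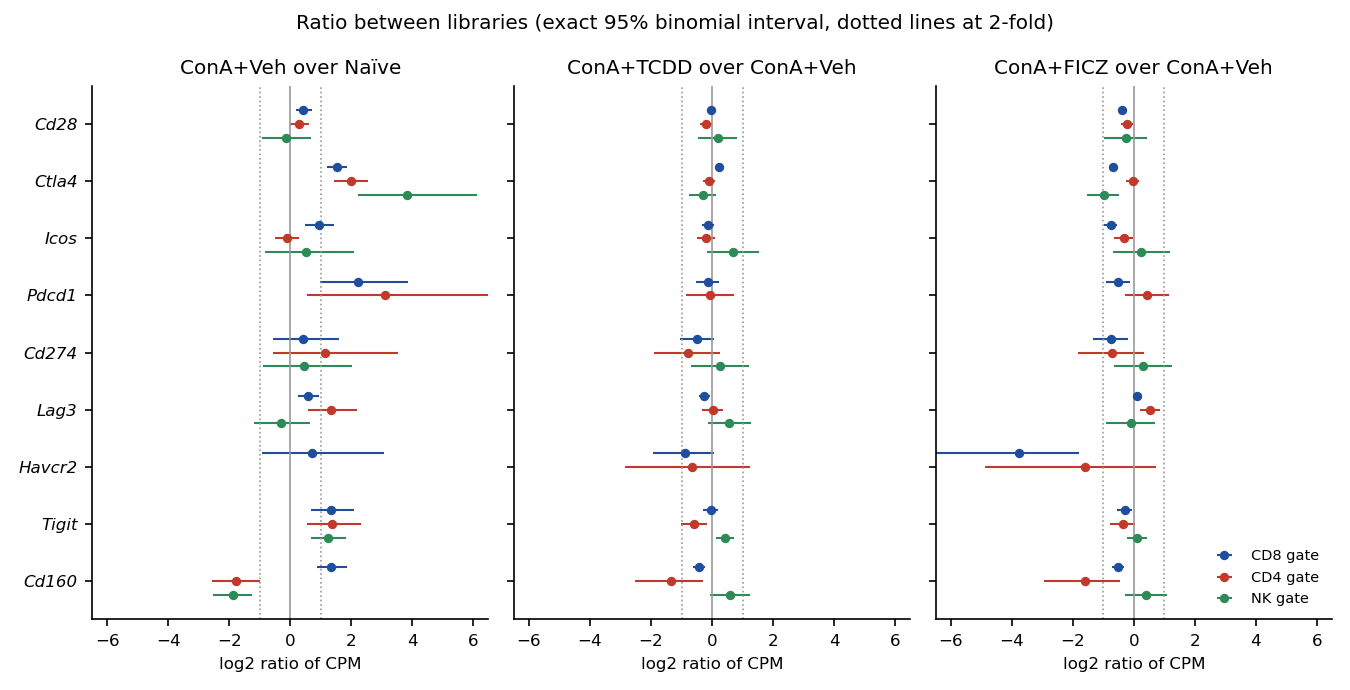
Log2 ratio of CPM (x axis) of each gene (y axis) between libraries, for the CD8, CD4 and NK gates (colour). Points are ratios of summed UMIs, bars exact 95% intervals, cut where they leave the axis, and dotted lines mark 2-fold. Genes with under 10 UMIs in both libraries together are not drawn. *Ctla4* and *Tigit* lie beyond the right dotted line in all 3 gates of the first panel, and in the other panels most points lie between the lines.

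TCDD was given to ask whether AhR activation alters this response. Few of all genes were past 2-fold between ConA+TCDD and ConA+Veh, so low counts in this set are not read as a result about it. No gene was at least 2-fold higher or lower in CD8 cells (0 and 0 of 9, against 1.97% and 4.10% of all genes) or in NK cells (0 and 0 of 7, against 3.11% and 7.58%). In CD4 cells none of 9 was higher against 2.75%, and 1 (*Cd160*, 10 against 32 UMIs, log2 ratio -1.34, -2.53 to -0.28) was lower against 4.92%. Smaller differences clear of 0 were found in CD8 cells for *Ctla4* (0.22, 0.11 to 0.33), *Lag3* (-0.25, -0.42 to -0.08) and *Cd160* (-0.42, -0.61 to -0.23). By the mean of each cell's CPM *Ctla4* was at -0.064. It was not higher by the share of thinned CD8 cells, 23.4% (18.5 to 28.8) against 30% in ConA+Veh, and no order is read from it. *Tigit* was lower in CD4 cells (-0.58, -1.02 to -0.15) and higher in NK cells (0.41, 0.12 to 0.71), and these intervals did not overlap.

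Cells with no *Cd52* UMI, an abundant lymphocyte transcript, were 17.8% of the CD8 gate in ConA+TCDD and 6.41% in ConA+Veh, and *Rbm3* was at 785 and 547 CPM. Without such cells *Havcr2* was past 2-fold lower in CD8 cells (log2 ratio -1.34) and in CD4 cells (-1.04), and the ratio of *Ctla4* in CD8 cells was 0.26.

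FICZ, the other AhR ligand, was set against the same ConA+Veh library, so that both treatment contrasts share it. In CD8 cells none of 9 genes was at least 2-fold higher, against 2.67% of all genes, and 1 (*Havcr2*) was lower against 4.91%, on 2 UMIs against 36 (log2 ratio -3.75, -6.85 to -1.79). In CD4 cells none of 9 was higher against 3.86%, and 2 (*Havcr2*, 2 against 8 UMIs, and *Cd160*, 8 against 32) were lower against 7.32%. In NK cells neither direction held any of 7 genes, against 5.54% and 7.03%.

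Below 2-fold, most of the set was lower in ConA+FICZ CD8 cells. The log2 ratio to ConA+Veh was -0.39 (-0.53 to -0.26) for *Cd28*, -0.69 (-0.82 to -0.57) for *Ctla4*, -0.75 (-0.96 to -0.54) for *Icos*, -0.52 (-0.90 to -0.13) for *Pdcd1*, -0.74 (-1.32 to -0.18) for *Cd274*, -0.30 (-0.55 to -0.05) for *Tigit* and -0.52 (-0.71 to -0.33) for *Cd160*. *Lag3* was the exception, at 0.12 (-0.03 to 0.27), with a share of thinned cells of 12.5% (8.67 to 17.1) against 16.1% in ConA+Veh, from which no order is read. Without *Ccr7* or *Lef1* cells at the deposited depth *Ctla4* was at 0.069, *Tigit* at 0.17 and *Lag3* at -0.30, and without cells over 10% mitochondrial UMIs *Cd28* was at -0.018. The median over the 9 genes was -0.52, beside -0.016 over all genes. In CD4 cells *Ctla4* was level with ConA+Veh (-0.04, -0.25 to 0.16) and *Lag3* higher (0.53, 0.21 to 0.85). These became -1.29 for *Ctla4* without *Ccr7* or *Lef1* cells, and between -0.12 and -0.093 for *Lag3* by mean CPM per cell, with gates on thinned cells or without those cells. In NK cells *Ctla4* was lower (-0.99, -1.54 to -0.47). The dose and time of FICZ are not given in the sources used here, so the 2 ligands were not compared with each other.

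**Figure D3:**
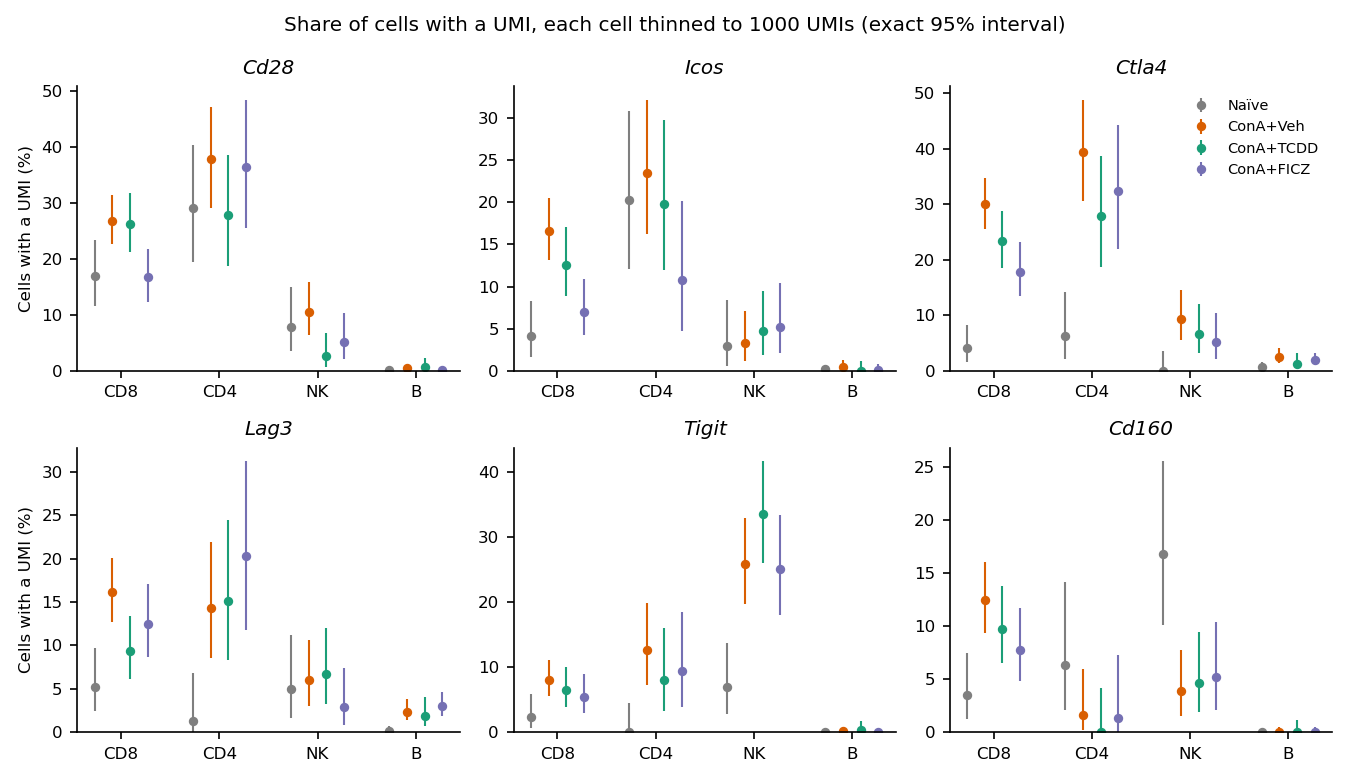
Share of cells with at least 1 UMI of a gene (y axis, percent) after thinning each cell to 1000 UMIs, by gate (x axis) and library (colour), with exact 95% intervals. The B gate was meant as the background for receptors of T and NK cells. *Lag3* and *Ctla4* were found there at a larger share of their T cell level than *Cd28*. Naïve *Ctla4* is at 4.09% in CD8 cells against 30% in ConA+Veh, and *Cd160* in NK cells at 16.8% in Naïve against 3.87%.

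Read per cell, inhibitory receptors were found in more CD8 and CD4 cells after ConA. At 1000 UMIs 10.5% of Naïve CD8 cells (6.36 to 16.1) held at least 1 of the 6 inhibitory receptor genes, compared with 51.7% (46.8 to 56.6) in ConA+Veh, 41.0% (35.2 to 47.0) in ConA+TCDD and 35.8% (29.9 to 42.0) in ConA+FICZ. At least 2 were read in 4.68%, 16.1%, 11.5% and 7%. The ConA+FICZ interval for 2 or more (4.20 to 10.8) lay below that of ConA+Veh (12.7 to 20.0) and overlapped that of Naïve (2.04 to 9.01). CD4 cells with at least 1 were 12.7%, 52.9%, 39.5% and 47.3%, and NK cells 27.7%, 40.3%, 45.0% and 35.6%. Few cells held 3 or more at this depth, at most 4.20% in any of these gates.

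**Figure D4:**
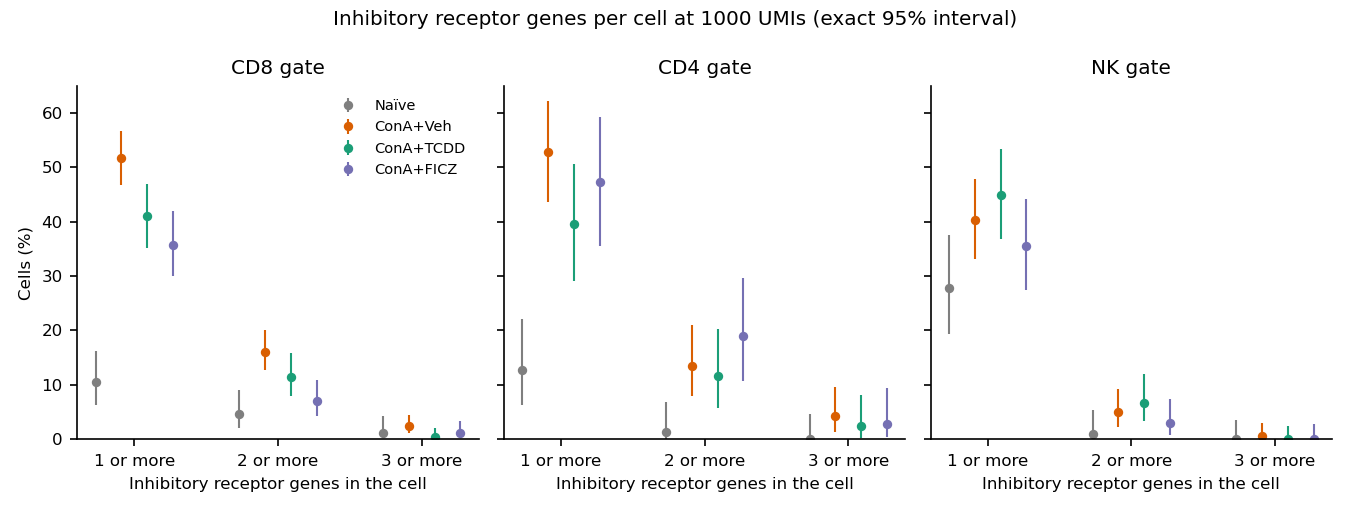
Share of cells (y axis, percent) with UMIs of at least 1, 2 or 3 of the 6 inhibitory receptor genes (x axis) at 1000 UMIs per cell, by library (colour) and gate (panel), with exact 95% intervals. In the CD8 gate the 4 libraries lie at 10.5%, 51.7%, 41.0% and 35.8% for 1 or more.

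Within CD8 cells some pairs of genes were read in the same cells more often than independence gives, and others were not. Over the 1116 thinned CD8 cells of the 4 libraries, *Ctla4* and *Icos* were found together in 56, where independence within each library gives 32.1. That pair exceeded independence in 3 of 4 libraries, as did *Cd28* with *Ctla4* (83 against 59.0). *Ctla4* with *Lag3* (49 against 32.0) and *Ctla4* with *Tigit* (29 against 16.8) exceeded it in 4 of 4 libraries. *Ctla4* with *Cd160* did not (24 against 25.4, above it in 1 of 4 libraries), nor did *Icos* with *Cd160* (8 against 13.5, above it in 2 of 4), while *Lag3* with *Cd160* (15 against 13.5) and *Cd28* with *Cd160* (27 against 25.1) were close to it. Pairs of scarce genes lay on either side, such as *Pdcd1* with *Lag3* (6 against 3.30) and *Cd28* with *Pdcd1* (5 against 6.71). In CD4 cells *Cd28* with *Icos* was found in 37 of 358 cells against 22.9. These counts are given as a description, since cells of a library share their source.

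The other genes of the pathway come from lists of ligands, partner receptors, proximal signalling and transcription factors. These lists too were chosen with earlier results of these data known. They are given by their counts, beside the shares of all genes of the same gate and comparison given above. In CD8 cells, ConA+Veh over Naïve, 9 of 22 transcription factors compared were at least 2-fold higher, led by *Ahr* itself (8.33 to 28.0 CPM, log2 ratio 1.75, 0.59 to 3.22) and *Nr4a3* (16.7 to 47.5 CPM), against 13.9% of all genes, and 3 lower against 13.7%, led by *Lef1* (337 to 126 CPM) and *Tcf7* (387 to 166 CPM). None of 20 proximal signalling genes was higher and 5 were lower, led by *Dgka*, a diacylglycerol kinase (261 to 76.4 CPM). None of 9 partner receptors was higher and 2 were lower, led by *Klrg1* (11.1 to 0.383 CPM) and *Vsir* (143 to 42.3 CPM), the gene of the checkpoint VISTA. The *Klrg1* ratio rests on few UMIs, as 3 UMIs in the ConA+Veh CD8 gate give 0.575 CPM. Of 5 ligands 1, *Pdcd1lg2* (PD-L2, 4.16 to 17.4 CPM), was higher and 1, *Cd86* (11.1 to 1.92 CPM), lower. In CD4 cells 5 of 21 transcription factors were higher and 2 lower, 4 of 20 signalling genes lower and 5 of 7 partner receptors lower, against 11.6% and 14.6% of all genes. In NK cells 2 of 21 transcription factors were higher and 5 lower, 7 of 20 signalling genes lower and 5 of 6 partner receptors lower, against 10.0% and 16.7%. In ConA+TCDD over ConA+Veh 1 of 23 transcription factors (*Tox2*) and 1 of 5 ligands (*Cd86*, at only 1.92 CPM in ConA+Veh) were higher in CD8 cells. None of these lists held a gene at least 2-fold lower there. In ConA+FICZ 2 of 22 transcription factors were lower (*Myb*, 73.7 to 31.2 CPM, and *Prdm1*, 5.17 to 2.30 CPM) and 2 of 7 ligands higher (*Tnfrsf14* and *Fgl1*, both under 3 CPM). *Nr4a3*, *Tcf7*, *Vsir*, *Prdm1* and *Tnfrsf14* are named here after their values were seen.

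Over the 16 points given by 4 gates and 4 libraries, the pattern of *Icos* was most like that of *Izumo1r* (Pearson r 0.95 on log2 CPM with 10 added) and *Tnfrsf4* (0.93), that of *Ctla4* like *Gm2000* (0.92), *Ifi27l2a* (0.90) and *Il2ra* (0.89), that of *Pdcd1* like *Irf4* (0.90), and that of *Cd160* like *Ly6c2* (0.90). The points share libraries and depth, and these are descriptions. Without the 4 regulatory T points *Izumo1r* (0.94) and *Ly6c2* (0.85) stayed among the 3 genes most like *Icos* and *Cd160*. *Tnfrsf4* for *Icos* and *Irf4* for *Pdcd1* did not, and *Ctla4* was most like *Ndufc2* (0.97) and *Tubb5* (0.96).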

How the data were processed

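Liver mononuclear cells of 4 groups were measured, with 1 library per group. The authors made 10x Genomics 5′ libraries and ran Cell Ranger (3.0.2 in the file headers) against the mm10 genome. What they deposited are unnormalized UMI counts for each gene in each cell. From these, gates were set per cell on marker UMIs (at least 1 UMI), and cells with 2 or more UMIs of B cell or mononuclear phagocyte markers were dropped from the T and NK gates. No doublet caller was run. Cells were otherwise kept as deposited. UMIs were summed per gate and library, divided by all UMIs of the gate and given per 1000000, with exact 95% intervals (Poisson for levels, conditional binomial for ratios, Clopper-Pearson for shares). Shares were read after thinning each cell to 1000 UMIs (seed 1), leaving out shallower cells (3 to 27 per CD8 or NK gate and library). Intervals cover counting error only.

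Named genes were the 9 members, the gene with the largest ratio of each sign in each pathway list in CD8 cells, and for members with at least 100 UMIs the 3 genes (of at least 200 UMIs) with the highest Pearson r. Members and lists were chosen with earlier results of these data known. Alternatives changed the gates, cells kept, totals and minimum of UMIs. Calculations ran in Python 3.11.15 with numpy 2.4.6, scipy 1.17.1 and pandas 2.3.3, and were tested on simulated data. Some marker genes are not reported here.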

Additional observations from a re-analysis of the deposited data

How the results depend on the processing

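No paired analysis was possible because each group has 1 library, and no library could be left out. Of the counts of genes past 2-fold recomputed, 229 stayed within 1.5 times the value in the report and 35 did not. Of the log2 ratios, 983 stayed inside their interval, 132 left it and 7 of those past 2-fold changed sign. Leaving out cells with many *S100a8* and *S100a9* UMIs changed no count. Each alternative that left out cells by *Ccr7* or *Lef1*, by *Klrb1c*, *Zbtb16* or *Cxcr6*, or by *S100a8* and *S100a9* was chosen after seeing the data. The cause of the changes below was not tested. No share of all genes past 2-fold was computed for any alternative. A shift common to all genes thus cannot be told apart from a change in these genes.

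For ConA+Veh over Naïve, 4 higher in CD8 cells became 9 by the mean of each cell's CPM, and 1 (deposited depth) or 2 (1000 UMIs) without *Ccr7* or *Lef1* cells. In CD4 cells 5 higher became 3 with stricter gates or gates on thinned cells, and 1 lower became 0 with stricter gates or no *Klrb1c*, *Zbtb16* or *Cxcr6* cells. In NK cells 2 higher became 1 with gates on thinned cells (*Tigit* was lost), with stricter gates the 2 were *Ctla4* and *Icos* (1.17) in place of *Tigit* (0.85), and 1 lower became 2 with no minimum of UMIs.

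For ConA+TCDD over ConA+Veh, 0 lower in CD8 cells became 1 without cells over 10% mitochondrial UMIs, with no *Cd52* UMI or with the most UMIs. In CD4 cells 1 lower became 2 without no-*Cd52* cells or *Ccr7* or *Lef1* cells at the deposited depth, and 3 with gates on thinned cells or no *Ccr7* or *Lef1* cells at 1000 UMIs. In NK cells 0 higher became 1 with gates on thinned cells or mean CPM per cell.

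For ConA+FICZ over ConA+Veh, 1 lower in CD8 cells became 2 with gates on thinned cells, and 3 by mean CPM per cell or without *Ccr7* or *Lef1* cells at the deposited depth. In CD4 cells 2 lower became 1 without cells over 10% mitochondrial UMIs, with stricter gates, a minimum of 30 UMIs or no *Ccr7* or *Lef1* cells (at either depth), and 0 by mean CPM per cell, which gave 1 higher in place of 0. In NK cells 0 higher became 1 with gates on thinned cells, and 0 lower became 1 with stricter gates, gates on thinned cells, mean CPM per cell, median-of-ratios size factors, no minimum or no *Ccr7* or *Lef1* cells at the deposited depth.

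Of log2 ratios that changed sign, *Ctla4* in CD8 cells for ConA+Veh over Naïve became -0.36 without *Ccr7* or *Lef1* cells at the deposited depth (33 Naïve and 63 ConA+Veh cells left, chosen at unequal depth). *Cd160* in CD4 cells became 2.25 without *Klrb1c*, *Zbtb16* or *Cxcr6* cells. *Havcr2* in CD4 cells for ConA+FICZ became 0.31 without cells over 10% mitochondrial UMIs. In regulatory T cells *Tigit* for ConA+Veh over Naïve became 0.68 without *Ccr7* or *Lef1* cells. For ConA+TCDD in those cells *Cd28* became 0.47 with the wider gate, and *Lag3* became 2.15 with gates on thinned cells and 1.95 without *Ccr7* or *Lef1* cells at 1000 UMIs.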

Other observations

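Ligands of the receptors were read in the cells that present them, chosen after their values were seen. In B-gated cells *Icosl*, the ligand of ICOS, was at 77.8 CPM (67.5 to 89.2) in Naïve and at 18.7, 16.2 and 25.6 in ConA+Veh, ConA+TCDD and ConA+FICZ. *Pdcd1lg2* (PD-L2) was at 25.8 CPM (20.0 to 32.7) in Naïve B cells and at 5.77 to 6.70 after ConA. With *Cd274*, 3 ligands were thus lower in B cells of every ConA library than in Naïve. *Lgals9*, a ligand of TIM-3, was higher there, at 107 CPM in Naïve and 158 to 216 after ConA. Mononuclear phagocytes held *Cd86* at 28.1 to 33.7 CPM in all 4 libraries.

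The B gate held *Lag3* and *Ctla4* at a larger share of the T cell level than *Cd28* and *Trac*. T cells here are those of the 3 T gates and the T cells outside them. *Lag3* in B cells was at 9.64% of its T cell level in Naïve and at 18.6%, 25.1% and 25.2% in ConA+Veh, ConA+TCDD and ConA+FICZ, and *Ctla4* at 5.80% to 9.76%. *Cd28* was at 0.43% to 1.82% and *Trac* at 0.55% to 2.70% in the same cells. *Lck* was at 3.5% in Naïve and at 23.2% to 28.4% after ConA, and *Cd3e* was at 0 because the gate excludes it.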
